A study of Mus musculus with 10 samples.

Results

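Open chromatin was compared between osteoblasts given BMP4 alone and osteoblasts left untreated, in 4 ATAC-seq libraries of the mouse line MC3T3-E1, a clonal line of pre-osteoblasts from skull bone. In ATAC-seq a transposase cuts accessible DNA, and the sequenced cuts (tags) are counted in windows where they pile up. The members are the 20307 windows of 125 bp that were called in both groups, out of 35534 regions called in any of the 4 lists of the series. They were paired where windows of the BMP4 list and of the untreated list on the same chromosome were each other's nearest and their starts differed by 62 bp or less. All groups first had 30 min in medium with 2.5% serum. The BMP4 group (2 libraries) then had 3 h of BMP4 at 10 ng/ml. The untreated group (2 libraries, labelled none) received no factor. A further 2 libraries from cells given TNFa with BMP4, 2 from cells given TNFa and 2 of background DNA complete the series. All cells carry the same genotype as far as the labels say, and the line is 1 clone. TNFa was at 10 ng/ml, for 3 h by the sample labels, while the treatment protocol gives 30 min before BMP4. Nothing in the labels says that the 2 libraries of a group were separate cultures, so p-values here reflect how far these libraries differ, possibly for technical reasons alone.

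BMP4 is a secreted ligand that binds pairs of type I and type II receptors, which phosphorylate SMAD1, SMAD5 and SMAD9. These join SMAD4, enter the nucleus and bind GC-rich elements and the letters GTCT. In mesenchymal cells the pathway induces the Id genes, whose products block helix-loop-helix factors, and its own inhibitors Smad6 and Smad7, and it favours osteoblast formation through Runx2 and the Dlx factors. The series concerns how BMP signalling protects cells from inflammatory death, and this comparison asks what BMP4 alone does to chromatin.

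Accessible windows were found at most osteoblast genes. Of 23 osteoblast factors, 21 had a window in the BMP4 list and 21 in the untreated list, Runx2, Sp7 and Dlx5 among them. At a promoter 14 and 15 factors had a window, with Runx2 and Dlx5 but not Sp7 among these. Of 30 matrix and membrane genes, 26 had a window in the BMP4 list and 27 in the untreated list, while Alpl, the alkaline phosphatase of bone, had none in either. Among 17 chondrocyte markers 11 had a window in the BMP4 list and 10 in the untreated list, and among 16 adipocyte markers 8 had one in each. Of 17 muscle markers 3 had a window in each list, Mef2c, Pax3 and Tnnt2, and Myod1, Myog and Des had none. Mef2c and Pax3 had one at a promoter too. Among 17 haematopoietic markers 5 had one in the BMP4 list and 4 in the untreated list, with Ptprc and Spi1 at none. Runx3 had 10 windows in the BMP4 list and 12 in the untreated list, its promoter among them. Of 13 neural markers 4 had a window in each list, 2 of them at a promoter. Endothelial genes, 15 in all, had a window at 5 in the BMP4 list and at 7 in the untreated list, but none at a promoter. A window is assigned to the gene with the nearest start site, which need not be the gene it acts on.

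Total tags were 26 M and 27.9 M in the BMP4 libraries, against 30.1 M and 29.1 M in the untreated libraries (M, mega). The share inside the library's own list was 4.88% (95% Wilson interval 4.87 to 4.89) and 8.00% (7.99 to 8.01) with BMP4, against 5.12% (5.12 to 5.13) and 6.84% (6.83 to 6.85) without, and background DNA gave 0.358% to 0.423% in the same windows. These intervals cover counting error only. The 2 libraries of a group stood further apart than some libraries of different groups. Across 20232 tested windows, which are not independent, log2 levels of the BMP4 libraries correlated at 0.420 and those of the untreated libraries at 0.603. BMP4 replicate 2 and untreated replicate 2 correlated at 0.948, and BMP4 replicate 1 and untreated replicate 1 at 0.80. The SD of the difference between the 2 libraries of a group was 1.5 on the log2 scale with BMP4 and 1.17 without, while the SD of the difference between the group means was 0.52.

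No single window passed with group as the only term. In limma, 0 of 20232 windows (0%) had a Benjamini-Hochberg adjusted p under 0.05 between BMP4 and untreated cells, and the smallest adjusted p was 1.000. At an unadjusted p under 0.05 there were 22 windows, 21 higher with BMP4 and 1 lower, and with voom weights 0 passed and 20 were under 0.05 unadjusted. Both counts are far fewer than would fall there with no difference at all. These p-values are therefore conservative and do not show that windows stayed unchanged. With replicate number as a block in limma, 21 higher and 7 lower windows passed, but the labels do not say what a number marks. With only 2 such pairs the libraries were not paired here. An exact permutation test of 2 libraries against 2 cannot go below 0.333 (two-sided). The count without BMP4 replicate 2 was 1 higher and 1 lower window. These windows, singled out after their values were seen, are one at -508 bp from Tmem126a (4.41 on the log2 scale, limma adjusted p = 0.0285) and one at -40416 bp from Shroom3 (-4.40, limma adjusted p = 0.0285).

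Windows are therefore described by whether the groups overlap. Both BMP4 libraries lay above both untreated libraries in 1703 windows (8.42%) and below them in 1696 (8.38%), and these shares are the background for every gene list here. Scaled by total tags in place of the trimmed mean of M-values (TMM), the split was 1938 higher (9.58%) and 872 lower (4.31%). The median difference over all tested windows was 0.02 on the log2 scale, 51.7% lay above 0, and 5% lay below -0.81 and 5% above 0.92. Promoter windows had 8.25% higher and 8.23% lower, windows in introns 8.43% and 7.75%, and intergenic windows 8.58% and 9.16%.

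**Figure D1:**
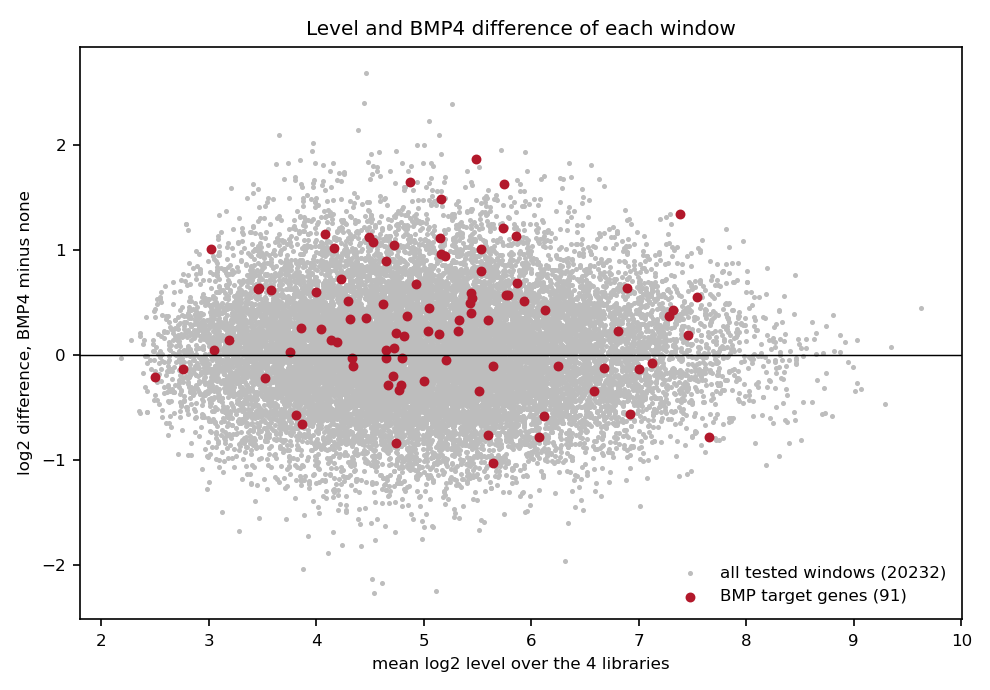
Each point is a tested window, with the mean log2 level over the 4 libraries on the x axis and the log2 difference of BMP4 minus untreated on the y axis. The 91 windows of BMP target genes (red) have a median of 0.33, and all 20232 windows (grey) a median of 0.02.

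Of 91 tested windows at 23 of 30 genes that BMP signalling is known to switch on, 62 (68.1%) lay above 0, against 51.7% of all windows, with a median of 0.33. The share above 0 was as high in other lists, with 32 of 46 windows (69.6%) of housekeeping genes and 26 of 34 (76.5%) of chondrocyte markers. The groups did not overlap in 28 of the 91 target windows, 25 higher with BMP4 (27.5%, background 8.42%) and 3 lower (3.30%, background 8.38%). With group as the only term none passed the adjusted threshold. With replicate number as a block, the higher window at -8646 bp from Id3 did (limma adjusted p = 0.0403). The higher windows belonged to 16 genes and the lower ones to 2, Fst and Smad7. Of 14 promoter windows 7 were higher, and of 77 other windows 18 were. Without 1 library the list's median was 0.30 (BMP4 replicate 1 left out), 0.47 (BMP4 replicate 2), 0.43 (untreated replicate 1) or 0.22 (untreated replicate 2), with 57 of 90, 58 of 87, 56 of 90 and 51 of 87 windows above 0. Within 10000 bp of a start site, an alternative added after the data were seen, 30 of 40 windows lay above 0 at a median of 0.50. Housekeeping genes had 7 of 46 windows higher (15.2%) and 1 lower (2.17%) at a median of 0.23, which ran from -0.33 to 0.54 when each library was left out in turn.

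Id genes are among the best known targets of BMP signalling. The stretches of promoter DNA under the Id3, Id2 and Smad6 windows are shown because these windows lay higher with BMP4 on average. That of Id4 is shown because its promoter window lay lower on average. At the Id2 and Id4 promoters the groups overlapped. The stretches are the parts of these windows within 250 bp before the start site, from RefSeq (GRCm38.p6, the build the files call mm10), 5′ to 3′ along the gene. Those of Id4 and Smad6 therefore hold only 71 and 60 bp of their windows of 125 bp, and the rest was not searched. Capitals mark GGCGCC and GGAGCC together with GTCT, letters known from SMAD binding, searched on both strands and counted separately where they share bases.
Id3 (chr4:136143647-136143771, + strand): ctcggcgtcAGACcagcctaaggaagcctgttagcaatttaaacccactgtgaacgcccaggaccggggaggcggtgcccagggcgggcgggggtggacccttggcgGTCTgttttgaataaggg
Id2 (chr12:25096129-25096253, - strand): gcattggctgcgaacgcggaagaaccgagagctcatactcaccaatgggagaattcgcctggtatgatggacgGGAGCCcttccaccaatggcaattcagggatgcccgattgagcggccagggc
Smad6 (chr9:64022060-64022119, - strand): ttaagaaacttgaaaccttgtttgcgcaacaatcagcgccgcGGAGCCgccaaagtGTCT
Id4 (chr13:48260866-48260936, + strand): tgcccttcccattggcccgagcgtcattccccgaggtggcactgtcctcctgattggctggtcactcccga
The Id3 stretch holds GTCT 2 times, that of Id2 GGAGCC once, that of Smad6 GGAGCC once and GTCT once, and that of Id4 none of the 3. Such matches are common. Among 3540 tested promoter windows that lie whole within a RefSeq promoter, GGCGCC was found in 11.9%, GGAGCC in 23.6% and GTCT in 53.1%, and their median differences were -0.01, -0.01 and -0.01, against 0.00, 0.01 and 0.01 in the windows without the letters.

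At the Id3 promoter, whose product is an inhibitor of helix-loop-helix factors, the BMP4 libraries held 326 and 214 CPM (tags scaled to 1e6 tags in tested windows, with TMM factors), against 84.6 and 124 CPM in the untreated libraries. Both BMP4 libraries lay above both untreated ones, at a log2 difference of 1.35 ± 0.62 (SE; limma adjusted p = 1). An intergenic window at -8646 bp from Id3 (chr4:136135114-136135238) had 189.7 and 37.2 CPM with BMP4, against 30.9 and 15.8 CPM without, a difference of 1.87 ± 0.95. Its neighbour at -9068 bp, at 116 and 29.2 CPM against 34.6 and 11.4 CPM, also had a higher mean with BMP4 but its groups overlapped. The remaining 3 windows of Id3 overlapped as well, between -0.34 and 0.57.

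Id2, another member of the family, had its most separate window at -5022 bp (chr12:25101052-25101176). The BMP4 libraries there held 98.9 and 87.6 CPM and the untreated libraries 25.8 and 33.2 CPM, a difference of 1.63 ± 0.69 and the only Id window with an unadjusted limma p under 0.05 (0.0495, adjusted p = 1). A window at -2846 bp held 68.3 and 51.8 CPM against 51.5 and 21.8 CPM, which also did not overlap. The Id2 promoter overlapped, with 46.9 and 113 CPM with BMP4 against 33.9 and 58.9 CPM without.

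Id1 is the gene whose promoter supplied the BMP response element of common reporter assays. Its window at -1056 bp (chr2:152735133-152735257) held 19.4 and 29.7 CPM with BMP4, against 11 and 9.27 CPM without, and its promoter window 41.8 and 59.3 CPM against 29.4 and 21.8 CPM. The log2 differences were 1.15 ± 0.68 and 0.94 ± 0.70, and in neither did the groups overlap. Windows at -9378 and 5341 bp were at 0.23 and 0.07, with overlap. For Id4 the promoter gave 25.5 and 97.4 CPM with BMP4 and 78.0 and 96.5 CPM without, which overlapped at -0.78 ± 0.84. A distal window of Id4 at -33194 bp, in intron 1 of the transcript A330033J07Rik, was higher in both BMP4 libraries (38.8 and 66.8 CPM against 14 and 36.5 CPM).

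**Figure D2:**
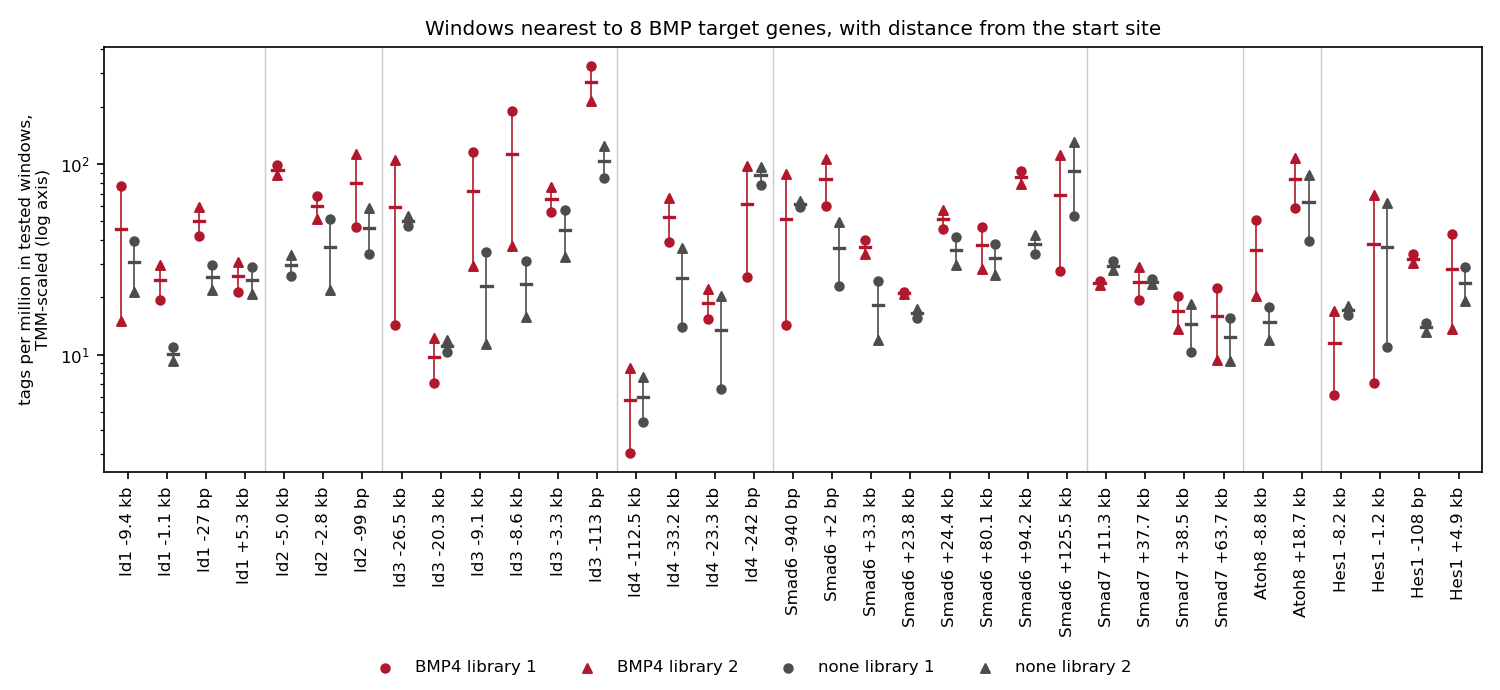
The 35 windows nearest to 8 BMP target genes are placed along the x axis by gene and distance from the start site, with the level in CPM (log axis) of BMP4 libraries (red, left) and untreated libraries (grey, right) and bars at the means of 2 libraries. In 14 windows both red points lie above both grey points, in 1 (Smad7, 11.3 kb) below, and in 20 they overlap.

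Smad6, the inhibitory SMAD that blocks the type I receptors, had the most windows of these genes, 8, and 5 were higher without overlap and 0 lower. Its promoter held 60.2 and 106 CPM with BMP4 against 22.8 and 49.6 CPM without (1.21 ± 0.77). Intron 1 (at 3343 bp) held 39.8 and 33.9 CPM against 24.3 and 12 CPM. An intergenic window at 94174 bp, beyond the gene, held 91.8 and 79.1 CPM against 33.9 and 42.5 CPM (1.14 ± 0.69). A second promoter window of Smad6 at -940 bp went apart within the BMP4 group, with 14.3 and 88.5 CPM, against 59.6 and 64.3 CPM in untreated libraries. Smad7, the other inhibitory SMAD, showed no such pattern. Its 4 windows lay between -0.29 and 0.26, and the one in intron 3 was lower in both BMP4 libraries (24.5 and 23.1 CPM against 30.9 and 27.8 CPM).

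Atoh8 and Hes1 encode helix-loop-helix factors. At -8810 bp from Atoh8 the BMP4 libraries held 51.0 and 20.2 CPM and the untreated libraries 17.7 and 12 CPM, which did not overlap (1.08 ± 0.75), while its intron 2 overlapped. The Hes1 promoter was at 33.7 and 30.1 CPM with BMP4 and at 14.7 and 13.1 CPM without, with little spread inside either group (1.13 ± 0.66), and the other 3 windows of Hes1 overlapped. Over the 8 genes together, 25 of 35 windows lay above 0.

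Among the other target genes, Dlx2, a homeobox gene of the skeleton and forebrain, had all 6 windows above 0 and 3 higher without overlap, led by one at -47971 bp with 63.2 and 40.5 CPM against 8.83 and 25.6 CPM (1.65 ± 0.78). Junb, an AP-1 gene, had 5 of 5 above 0, and at its promoter the values were 61.2 and 70.1 CPM with BMP4 and 42.7 and 44.7 CPM without. The promoter of Skil, a SMAD corepressor, held 90.8 and 45.2 CPM against 30.9 and 31.6 CPM, and that of Dlx5, an osteoblast homeobox gene, 58.1 and 43.3 CPM against 33.1 and 37.1 CPM. Fst, whose product follistatin binds activins and BMPs, had 2 of 3 windows lower in both BMP4 libraries. Of these the window at 11560 bp held 22.4 and 50.4 CPM against 83.9 and 58.3 CPM (-1.03 ± 0.76). Tgif1 with 12 windows and Zfp423 with 8 had medians of 0.10 and 0.13, and 1 window of Tgif1 was higher without overlap.

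BMP ligands had 6 tested windows at 4 genes, 1 higher (16.7%) and 1 lower (16.7%). The higher one lay at -108488 bp from Bmp2, at 14.3 and 20.2 CPM with BMP4 against 9.57 and 14.2 CPM. The lower one was at -46059 bp from Bmp4 itself, at 15.3 and 23.1 CPM against 28.0 and 30.5 CPM. Receptors and co-receptors had 10 windows, 2 higher and 0 lower, at Neo1 (40.8 and 16.9 CPM against 11.8 and 13.1 CPM) and Tgfbr3 (41.8 and 47.1 CPM against 17.7 and 38.7 CPM). Signal transducers had 46 windows, 2 higher (4.35%) and 1 lower (2.17%). Those higher were in Mapk14, which encodes the kinase p38 alpha, and in Runx2. Inhibitors of the pathway had 9 of 78 higher, 5 of them at Smad6, and 7 lower (8.97%), 2 each at Fst and Tob1. A distal window of Smurf2, a ubiquitin ligase of SMADs, was among the higher ones (126 and 75.8 CPM against 47.1 and 46.9 CPM), and another at -9922 bp among the lower ones. Genes such as Smad6, Fst and Skil stand on both the target and the inhibitor list. Leaving out each library, the medians of ligands (-0.24 to 0.38), transducers (-0.18 to 0.17) and inhibitors (-0.07 to 0.11) crossed 0.

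Of 87 windows of osteoblast factors 13 were higher (14.9%) and 5 lower (5.75%), at a median of 0.30, which was 0.07 without BMP4 replicate 1 and 0.51 without BMP4 replicate 2. Snai1, a zinc finger repressor, had a promoter window at 169 and 137 CPM with BMP4 and 54.5 and 83.4 CPM without (1.16 ± 0.66). Its stretch before the start is shown because this is the promoter among the 4 windows of this list with the smallest p, with GTCT found 2 times. The Dlx5 promoter, also higher, is not among those windows.
Snai1 (chr2:167538058-167538182, + strand): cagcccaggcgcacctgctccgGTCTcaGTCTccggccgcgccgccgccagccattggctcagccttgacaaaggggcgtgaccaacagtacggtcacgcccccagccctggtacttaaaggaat
A Runx2 window in intron 2 held 76.5 and 55.1 CPM against 18.4 and 40.3 CPM, and a distal window of Prrx1, a factor of limb and skull mesenchyme, 21.4 and 17.9 CPM against 7.36 and 8.18 CPM. Runx2, the master regulator of osteoblasts, overlapped in the other 13 of its 14 windows. Matrix and membrane genes had 14 of 105 higher (13.3%) and 8 lower (7.62%), at a median of 0.14, which was 0.02 without untreated replicate 1 and 0.25 without untreated replicate 2. In intron 7 of Dcn, which encodes the proteoglycan decorin, libraries of a group were close, at 98.9 and 100.3 CPM with BMP4 and 47.1 and 45.8 CPM without (1.08 ± 0.67). An intergenic window of Postn, the periostin gene, held 27.5 and 27.8 CPM against 11.8 and 15.3 CPM.

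Cartilage genes, which BMPs also induce, had 6 of 34 windows higher (17.6%) and 1 lower (2.94%) at a median of 0.33. The last intron of Sox6, a partner of Sox9, held 67.3 and 48.0 CPM with BMP4 against 20.6 and 18.5 CPM (1.48 ± 0.68), and intron 17 of the cartilage collagen gene Col2a1 26.5 and 33.0 CPM against 11 and 16.4 CPM. As a sum over the list's windows, scaled to 1e6 tags of the library's own peak list, there were 1722 and 1709 tags with BMP4, and 1106 and 1314 without. Each sum covers the windows called in that group, so the windows summed differ between the groups. The median of the cartilage list was 0.20 to 0.51 with 1 library left out. The TGF-beta list had 6 of 49 higher (12.2%) and 4 lower (8.16%). AP-1 and immediate early genes had 22 of 139 higher (15.8%) and 12 lower (8.63%). Of these Fosb had 4 of 5 windows higher, as at 1355 bp in intron 1 (70.4 and 19.3 CPM against 19.1 and 13.6 CPM). At 9190 bp Fosb held 89.7 and 11.3 CPM against 11 and 7.09 CPM, so that the higher level came mainly from BMP4 replicate 1. Dusp6, an ERK phosphatase, had a distal window at 26.5 and 25.9 CPM with BMP4 and 86.1 and 40.3 CPM without.

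**Figure D3:**
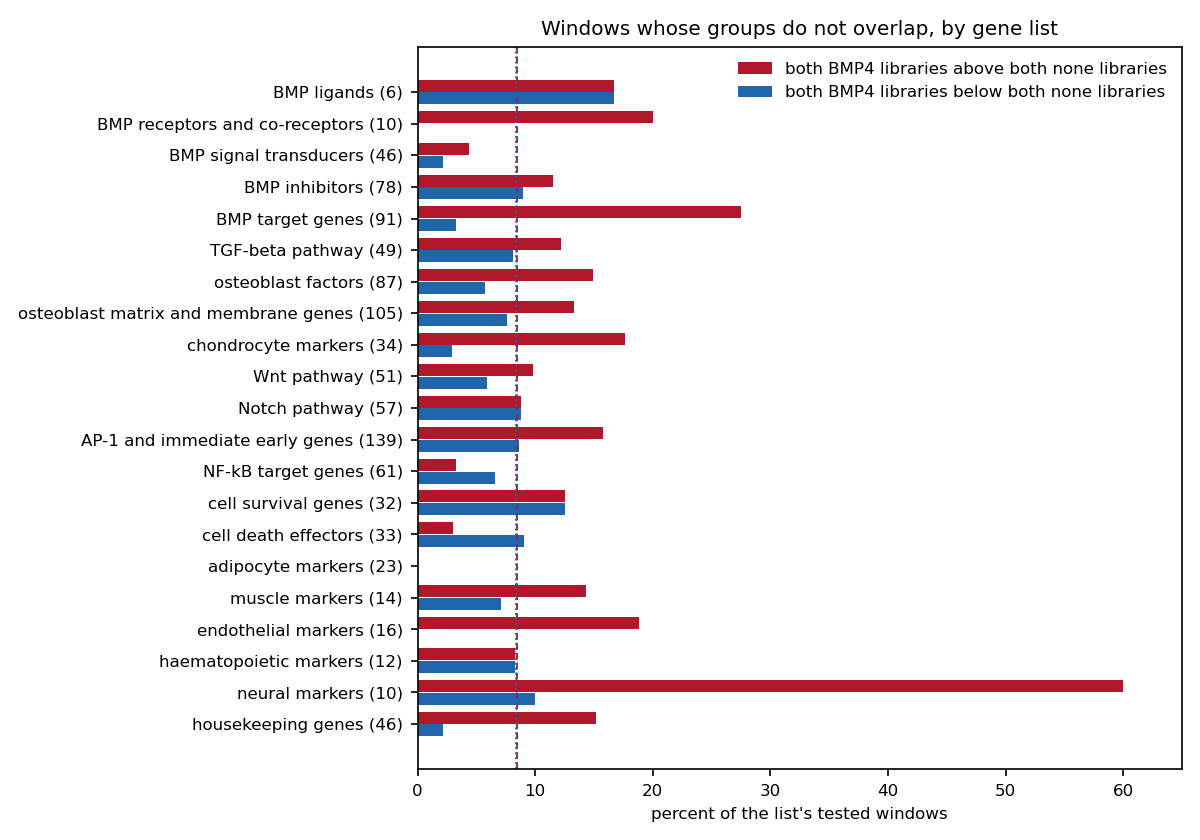
Bars give the percent of each list's tested windows (number in brackets) in which both BMP4 libraries lie above (red) or below (blue) both untreated libraries, and the dashed and dotted lines the shares over all windows, 8.42% and 8.38%. BMP target genes reach 27.5% higher and 3.30% lower, and the neural list has 6 of 10 windows higher.

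Wnt genes (5 higher and 3 lower of 51), Notch genes (5 and 5 of 57), NF-kB targets (2 and 4 of 61), cell survival genes (4 and 4 of 32) and cell death effectors (1 and 3 of 33) had medians from -0.03 to 0.08. Each of these medians crossed 0 when libraries were left out in turn, and that of the death effectors, 0.05, was also -0.02 under quantile normalisation. A promoter window of Bcl2l11, which encodes the death activator BIM, held 17.3 and 47.5 CPM with BMP4 against 67.0 and 64.3 CPM, and that of the survival gene Tnfaip3 21.4 and 39.5 CPM against 51.5 and 42.5 CPM. Another Bcl2l11 window, at -110 bp from a different start site, was higher in both BMP4 libraries (0.76).

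Markers of other cell types did not all stay level. Neural markers had 10 tested windows at 4 of 13 genes, 6 higher and 1 lower (10.0%), and Sox2, Pax6 and Map2 had no window. The higher ones belonged to Tubb3 (84.6 and 37.2 CPM against 31.6 and 24.5 CPM at the promoter), Nes, Neurod1 and Gfap. The lower one was also at Nes, at -10096 bp (17.3 and 32.0 CPM against 73.6 and 43.1 CPM). Summed tags of this list, on the scale used for cartilage genes, were 356 and 256 with BMP4 and 231 and 228 without. Endothelial markers had 3 of 16 higher (18.8%) and 0 lower, with sums of 884 and 1018 against 649 and 699.7. Muscle markers had sums of 566 and 604 against 520.1 and 496, haematopoietic markers 545 and 667 against 679 and 783, and adipocyte markers 984 and 1000.3 against 1213 and 1225, with 0 of 23 adipocyte windows apart in either direction. All these sums cover the windows called in each group, so a difference can come from which windows were called. Whether other cells had a part in these differences was not tested.

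None of the 24 windows with the smallest p was nearest to a gene of the BMP target list. All 24, 12 in each direction with a mean of at least 30 tags, had an adjusted p of 1 in limma with group as the only term. The smallest p of the higher ones belonged to a window in intron 1 of Mid1, nearest to 4933400A11Rik (chrX:169794561-169794685), at 87.7 and 26.8 CPM with BMP4 and 8.83 and 7.63 CPM without (2.40 ± 0.79, unadjusted p = 0.0184). A window near Gm45924 (chr15:38710305-38710429) was at 85.7 and 87.1 CPM against 7.36 and 31.1 CPM. One near Gm19510 (chr15:59734093-59734217) was at 72.4 and 41.0 CPM against 2.21 and 20.2 CPM, where untreated replicate 1 had 3 tags.

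Some of these windows had a gene of the lists in their neighbourhood, and the share of all windows that do is not given here. The window near Gm45924 lies 296 kb from the Wnt gene Fzd6 and 409.7 kb from the early gene Klf10. The lower window at Selenow lies 386 kb from the death effector Bbc3. An intergenic window assigned to Ube2v1 (chr2:167597499-167597623) lies 54.7 kb from Snai1 and 91.4 kb from Cebpb, by RefSeq positions. It held 193 and 162 CPM with BMP4 against 52.2 and 56.1 CPM, so that the libraries of each group were close (1.68 ± 0.65). One assigned to Sem1, a proteasome subunit gene (chr6:6543981-6544105), lies 319 kb from Dlx6 and 334 kb from Dlx5, at 65.3 and 71.6 CPM against 11.8 and 24.5 CPM. Intergenic windows near A730020M07Rik (237 and 130.4 CPM against 55.2 and 43.6 CPM) and D630013N20Rik (112 and 138 CPM against 28.7 and 48.0 CPM) belong to the same 12. P3h2, a prolyl hydroxylase gene for collagens, had a window at -43693 bp with 63.2 and 29.2 CPM against 9.57 and 11.4 CPM. Aktip, B3gnt2, Fign and Gcnt1 complete the 12, between 1.71 and 2.15.

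Of the lower windows, the smallest p was that of a window in intron 19 of Tanc1, nearest to Wdsub1 (chr2:59829019-59829143), with 8.16 and 25.4 CPM with BMP4 and 69.9 and 78.5 CPM without (-2.25 ± 0.78, unadjusted p = 0.0232). Promoters made up 4 of the 12 lower windows and 0 of the 12 higher ones, against 7010 of all 20232 tested windows. Over all tested promoter windows 8.25% were higher and 8.23% lower without overlap. Those of Ppil1, which encodes a prolyl isomerase of the spliceosome, Selenow, a selenoprotein gene, Spdl1, a gene of mitotic spindle attachment, and the neuronal kinase gene Camk2a were lower in both BMP4 libraries. Selenow held 18.4 and 26.8 CPM against 80.2 and 56.7 CPM, and Camk2a 30.6 and 45.7 CPM against 109 and 97.6 CPM. Spdl1 was at 8.16 and 14.6 CPM with BMP4 and at 53.7 and 22.3 CPM without. The Spdl1 stretch is shown for contrast with those above, since this lower promoter holds GGCGCC once and GTCT 2 times.
Spdl1 (chr11:34833642-34833744, - strand): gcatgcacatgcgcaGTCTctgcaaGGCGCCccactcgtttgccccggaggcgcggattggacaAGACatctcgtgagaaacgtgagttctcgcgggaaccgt
At Acer3, a ceramidase gene, the window at -9575 bp held 3.06 and 29.2 CPM against 55.2 and 46.3 CPM, where BMP4 replicate 1 had 3 tags.

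**Figure D4:**
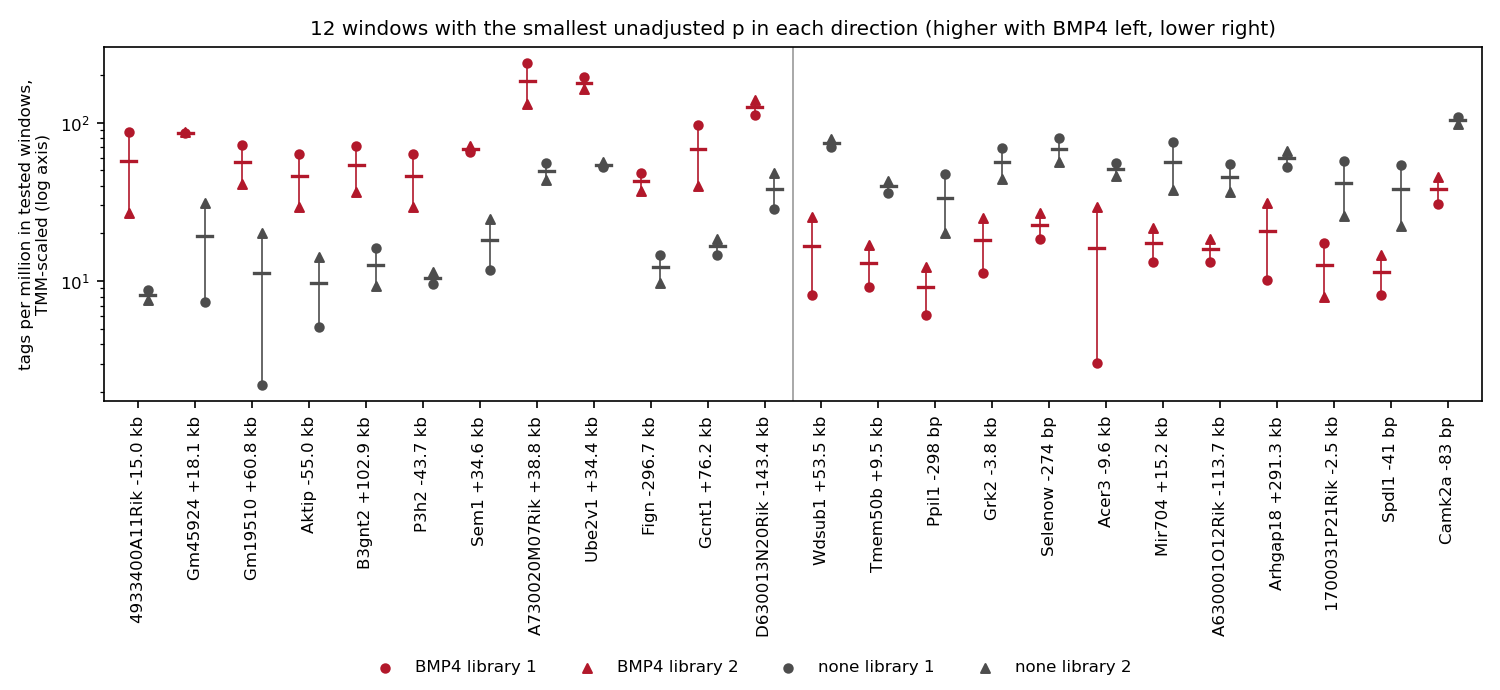
Levels in CPM (log axis) of BMP4 libraries (red, left) and untreated libraries (grey, right) for the 12 windows with the smallest unadjusted p in each direction, with bars at the means of 2 libraries. All 24 are apart, and the red points of Acer3 and the grey points of Gm19510 are spread most.

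The lists also differ in which windows they hold at all. Of 24525 windows in the BMP4 list, 4218 (17.2%) had no untreated window within 62 bp and 2269 (9.25%) none within 500 bp. The untreated list of 26230 had 5923 (22.6%) and 4226 (16.1%) without a BMP4 window at those distances. Which list held the larger share depended on the threshold against background. Both lists were cut to windows with a log2 fold over background of at least 3. Then 24.7% of the BMP4 list and 19.1% of the untreated list had no partner left within 62 bp. With both cut to an adjusted p under 0.001 it was 15.4% and 39.7%. Windows without a partner after such a cut can have a called partner that missed the threshold. Peaks were called on pooled libraries, so these lists have no replicate. BMP target genes had 19 windows in the BMP4 list with no untreated window within 500 bp, of 117 there, and 10 in the untreated list, of 103. Atoh8 had 6 windows in the BMP4 list against 3 in the untreated list, and Hes1 8 against 4. Windows with none of the other list within 500 bp were mostly shallow, with medians of 15 and 21 tags in the BMP4 libraries for those of the BMP4 list, and 18 and 22 tags in the untreated libraries for those of the untreated list. Deeper ones were found at Atoh8 (at 46077 bp, 60 and 152 tags in the BMP4 libraries) and at Hes1 (at 5550 bp, 68 and 23 tags). Smad9, which encodes the third BMP SMAD, had its 1 window in the BMP4 list (31 and 25 tags in intron 1). Hey1, a Notch and BMP target, had a promoter window in the BMP4 list without an untreated one near it (15 and 30 tags). The promoter of Tgif1, a SMAD corepressor, was called in the untreated list alone (55 and 80 tags in the untreated libraries). The windows with the most tags of the BMP4 list alone were near Ccdc9, Tcp1, Gadd45b, Plxnd1, Fos and 9130221F21Rik, and those of the untreated list near Mrpl54, Ggnbp2, Aldh4a1, Mascrna, Gpsm3 and Mlst8. Near Gadd45b, a growth arrest and stress gene, the window at 9203 bp held 77 and 348 tags in the BMP4 libraries.

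The same windows were looked up in the cells that also received TNFa, which share no library with this comparison. The titles of the TNFa libraries include p65, which the labels leave unexplained, and any difference in how they were prepared would enter these values. Of the 24 windows with the smallest p, 14 were in all 4 lists. There TNFa with BMP4 minus TNFa alone had the same sign in 6 of 6 higher windows (median 1.35, from 0.77 to 1.80) and in 8 of 8 lower windows (median -0.73, from -1.11 to -0.46). In all 8 lower windows the 2 groups with TNFa overlapped, as at Selenow (12.3 and 124 CPM with TNFa and BMP4, against 42.1 and 131 CPM). Of the 6 higher windows only that near Gm19510 overlapped there. Over all 14712 windows in the 4 lists 71.3% had the same sign, and of the windows whose groups did not overlap 80.3% of the higher and 85.8% of the lower ones did. Without replicate 1 of the combined treatment only 6 of the 14 kept their sign. Some libraries were alike across these groups too. BMP4 replicate 1 correlated at 0.930 with replicate 1 of TNFa with BMP4, and replicate 2 of TNFa with BMP4 at 0.901 with untreated replicate 1. Their part in the shared signs was not tested.

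Among the 8 target genes, 10 of the higher windows were in all 4 lists, and 9 of these were above 0 with TNFa as well. Of all higher windows in the 4 lists, 80.3% kept their sign. In 7 of the 10 both libraries of the combined treatment lay above both TNFa libraries. Over all windows 8.42% were higher and 9.16% lower in this way, but the 10 were picked as already higher with BMP4. Of all 26 windows of the 8 genes in the 4 lists, 16 were above 0 with TNFa. The Id3 promoter held 274 and 228 CPM with TNFa and BMP4, against 55.6 and 86.3 CPM with TNFa, a difference of 1.82 on the log2 scale. The Id3 window at -8646 bp held 147 and 70.6 CPM against 47.2 and 13.0 CPM, and that of Id2 at -2846 bp 69.9 and 98.6 CPM against 32.0 and 35.5 CPM. The Id1 promoter was at 35.6 and 81.8 CPM against 16.8 and 34.3 CPM, and that of Smad6 at 67.2 and 51.5 CPM against 27.0 and 37.8 CPM. The exception of the 10 was the Smad6 window at 24357 bp in intron 3, at -0.16. Over the whole target list the values were closer to 0 with TNFa. Its 63 windows in all 4 lists had a median of 0.29 without TNFa and of 0.06 with TNFa, where 35 lay above 0. The difference between the 2 effects was tested in limma with an interaction term, and 0 of 14712 windows (0%) passed, with 0 at an unadjusted p under 0.05. That is fewer than would fall there with no difference at all. The test was therefore conservative and cannot show that the 2 effects are alike.

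**Figure D5:**
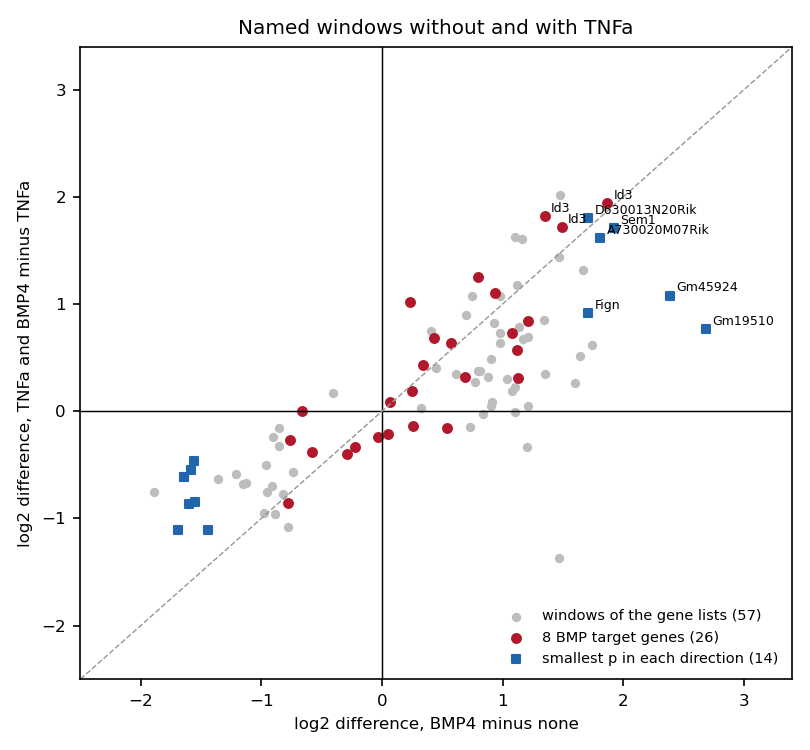
Each point is a named window found in all 4 lists, with its log2 difference of BMP4 minus untreated on the x axis and of TNFa with BMP4 minus TNFa on the y axis, and a dashed line where they are equal. The 14 windows with the smallest p (blue squares) lie in the upper right or lower left, and the 3 Id3 points at upper right are near the line.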

How the data were processed

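ATAC-seq libraries were made with a commercial kit and sequenced as 150 bp paired reads, per the labels' protocols. The submitters' processing notes list HOMER 4.11, deepTools 3.5.1, Picard 2.25.1, Bowtie2 2.5.1 and Trimmomatic 0.39, with build mm10. An offset of tags for the transposase is not stated in the sources used here. Peaks were called by HOMER, per the file headers, on the pooled libraries of each group against 2 background libraries. The authors deposited, per list, a log2 fold change and p-value over background (used to filter only), a HOMER peak score (not used in a test) and per-library log2 values, which are regularised logs (rlog) fitted in each list, although the headers call them tag counts. Tags were recovered by inverting the rlog equation, for which each list needed 4 constants estimated from the data: 99.28% of values of the BMP4 list and 99.94% of the untreated list came out within 0.1 of a whole number (13.2% and 13.0% with the constants moved), and background tags were equal in 100% of 8660 windows with identical coordinates. Scripts were tested on simulated data.

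Windows with at least 10 tags in at least 2 of 4 libraries were tested (20232) with limma 3.58.1 (R 4.3.3), trend, on log2 CPM with a pseudocount of 2 tags and TMM scaling, group as the only term, two-sided, Benjamini-Hochberg over all tested windows. Fold changes on this scale understate those of low windows. The named windows are all those of Id1 to Id4, Smad6, Smad7, Atoh8 and Hes1, up to 4 per gene list with the smallest p, 12 in each direction with the smallest p and a mean of at least 30 tags, and the 6 of each list with the most tags and no partner within 500 bp; others were chosen after their values were seen. The members and the 21 gene lists were chosen with earlier results of these data known. Gene names are those of the files. Alternatives covered scaling, pseudocount, filter, matching, weights, replicate number and each library left out.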

Additional observations from a re-analysis of the deposited data

How the results depend on the processing

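Across 16 alternative settings for the 4 libraries, the 85 named windows whose groups did not overlap kept their sign in each of 1233 values (leaving out a library cannot turn it there), and 12 of them passed the adjusted threshold in 1 setting, the replicate block. Of 722 values of the 49 overlapping named windows 43, in 29 windows, had the other sign, 8 moved by more than the spread between replicates, and of 340 values of the other 20 lists 39 did. The libraries of a group are numbered 1 and 2. The replicate 2 minus replicate 1 differences of the BMP4 and untreated groups correlated at 0.781 across windows, but there are only 2 pairs and the labels do not say what a number marks, so the libraries were not paired. With the replicate block, limma called 21 windows higher and 7 lower at an adjusted p under 0.05, against 0 and 0, with 1078 and 702 at an unadjusted p under 0.05. The block changed no other call, and the interaction with TNFa stayed at 0.

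Leaving out each library gave 0 to 1 windows past the adjusted threshold in each direction, 4727 to 7049 higher and 4706 to 6889 lower windows without overlap (a group of 1 library overlaps less by construction), a BMP target median of 0.22 to 0.47, 0 windows for the interaction and 6 to 14 shared signs with TNFa. A lone library is there assumed to vary like the other group. With total tags 872 windows were lower without overlap. With identical coordinates, where 8647 windows were tested, 703 were higher and 729 lower. Windows in 1 list alone numbered 4218 (17.2%) for BMP4 and 5923 (22.6%) for untreated cells at 62 bp, and 2269 (9.25%) and 4226 (16.1%) at 500 bp. With both lists cut to a background adjusted p under 0.001, 1430 (15.4%) and 5152 (39.7%) had no partner left. With both cut to a log2 fold over background of at least 3 the order turned, to 4861 (24.7%) and 3501 (19.1%). After such a cut, a window without a partner can have a called one that missed the threshold. Fewer windows enter under identical coordinates and the stricter thresholds; for the other shifts the cause was not tested. Depth limits windows near 10 tags, and 2 libraries a group whose levels correlate at 0.420 and 0.603 limit every test; sites open in only 1 group are outside the tested windows.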

Other observations

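Genes with several windows that were apart in the same direction were found outside the lists; they were singled out after their values were seen, and the background of 8.42% higher and 8.38% lower applies to each window. All 5 tested windows of Gpc1, which encodes the heparan sulphate proteoglycan glypican 1, were lower in both BMP4 libraries. They lie from -48711 to -15527 bp. The largest difference was at -44284 bp, with 47.9 and 79.6 CPM with BMP4 and 129 and 195 CPM without (-1.34 ± 0.69, SE). The window at -16364 bp held 92.8 and 101 CPM against 143 and 153 CPM. With TNFa, the 4 of them found in all 4 lists were lower too, at -1.36, -0.24, -0.88 and -0.52. Of 9 windows of Irf2bpl 5 were lower and 0 higher, as at -9235 bp (14.3 and 25.4 CPM against 62.6 and 32.2 CPM). Pax8, a gene of thyroid and kidney development, had 4 of 5 lower, as at -87426 bp (40.8 and 49.9 CPM against 132 and 66.5 CPM).

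Lmna, which encodes the nuclear lamins A and C, had 4 of 8 windows higher and 0 lower. In its intron at 4590 bp the BMP4 libraries held 274 and 138 CPM and the untreated libraries 67.7 and 114 CPM (1.14 ± 0.69, SE). Its window at -11108 bp held 166 and 105 CPM against 75.8 and 62.1 CPM. Trabd2b had 5 of 18 higher and 0 lower. All windows named here had an adjusted p of 1 in limma.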
